A study of Mus musculus with 39 samples.

Results

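Mitochondria make a small set of respiratory chain proteins on ribosomes of their own, and the protein parts of those ribosomes are encoded in the nucleus. Their genes are named Mrpl for the large subunit and Mrps for the small subunit. Members were taken as probe sets annotated with exactly 1 gene symbol that begins with Mrpl or Mrps and a number, with the probe set of the highest mean kept for each symbol. This gave 77 genes, 48 Mrpl and 29 Mrps, of the 19938 genes measured. A probe set that Mrpl53 shares with Ccdc142 was not taken, and 8 members had a choice of 2 probe sets. No filter on low values was applied, so all 77 members entered every comparison. Many of the proteins have a counterpart in bacterial ribosomes, and others were added during the evolution of mitochondria. The products of a cell's mitochondrial ribosomes feed oxidative phosphorylation, which in the beta cell couples glucose metabolism to insulin release.

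Total RNA of pancreatic islets from 10 groups of mice was measured on 39 Affymetrix arrays of 1 whole-transcript mouse design. Pdx1-creLate mice (n = 4), which carry a Cre transgene under the control of a Pdx1 promoter, were compared with wild type littermates of the same backcross to generation N8 (n = 4), and neither was pregnant. In this line the transgene is known to hold a human growth hormone minigene. Neither Cre nor that minigene was measured here. The other 31 arrays were of wild type C57bl6/J mice: non-pregnant females (n = 4), pregnancy days 3.5 (n = 3), 6.5, 9.5, 12.5, 15.5 and 18.5 (n = 4 each) and 10 days post partum (n = 4). The labels call the replicates biological and give no ages. Levels are log2 values, so a difference of 1 is a 2-fold change, and they carry 1 decimal.

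Endocrine markers were high on every array, with Ins2 at 11.9 to 12.7, Sst at 12.2 to 13.8 and Ppy at 11.8 to 13.2 over the 39 arrays. RNA of exocrine cells was also present in varying amount. The mean of 19 measured acinar markers ranged from 5.58 on 1 array of day 3.5 to 10.7 on 1 Pdx1-creLate array. In bulk islets, fewer cells of a type and less RNA per cell cannot be told apart. The spread of the levels also differed between arrays. The SD over all 35556 probe sets ran from 1.98 to 2.11, and by group it moved with the level of the members. Because of this, the count of called members in each comparison, where above 0, is given under 3 settings. These are as deposited, after quantile normalization of all arrays, and with the array SD as a covariate.

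The median of the 77 members on each array was used to describe the family. The 4 non-pregnant arrays had member medians of 7.3, 7.3, 7.3 and 7.2 (mean 7.28 ± 0.05, SD, n = 4). Day 3.5 stood at 7.33 ± 0.06 (SD, n = 3) and day 6.5 at 7.28 ± 0.05 (SD, n = 4), and both ranges overlapped the non-pregnant one. On the arrays of day 9.5 the member median was 7.4, 7.5, 7.6 and 7.6 (7.53 ± 0.10, SD, n = 4). All 4 lay above every non-pregnant and every day 6.5 array. The median was 7.43 ± 0.05 at day 12.5, 7.35 ± 0.10 at day 15.5, 7.45 ± 0.10 at day 18.5 and 7.28 ± 0.10 at 10 days post partum (SD, n = 4 each). The 4 arrays of day 12.5 lay between 7.4 and 7.5, also above all non-pregnant arrays, while the ranges of days 15.5 and 18.5 reached down to 7.2 and 7.3. Pdx1-creLate arrays stood at 7.35 ± 0.06 and control littermates at 7.33 ± 0.05 (SD, n = 4 each), and their ranges, both 7.3 to 7.4, were equal.

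After quantile normalization, which gives every array the same distribution of values, day 9.5 remained the group with the highest member median. It was 7.47 ± 0.06 at day 9.5 against 7.28 ± 0.03 in non-pregnant mice (SD, n = 4 each), and the lowest array of day 9.5, at 7.39, lay above the highest non-pregnant array, at 7.30. The difference between these means was 0.25 as deposited and 0.19 after quantile normalization. The array SD was 2.01 to 2.05 in non-pregnant mice, 2.03 to 2.07 at day 6.5, 2.07 to 2.11 at day 9.5, 2.05 to 2.10 at day 18.5 and 2.00 to 2.04 post partum. It was thus higher on every array of day 9.5 than on every non-pregnant array, and higher on every array of day 18.5 than on every array post partum. Between those groups, a change of the members and a change of the array SD cannot be told apart.

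**Figure D1:**
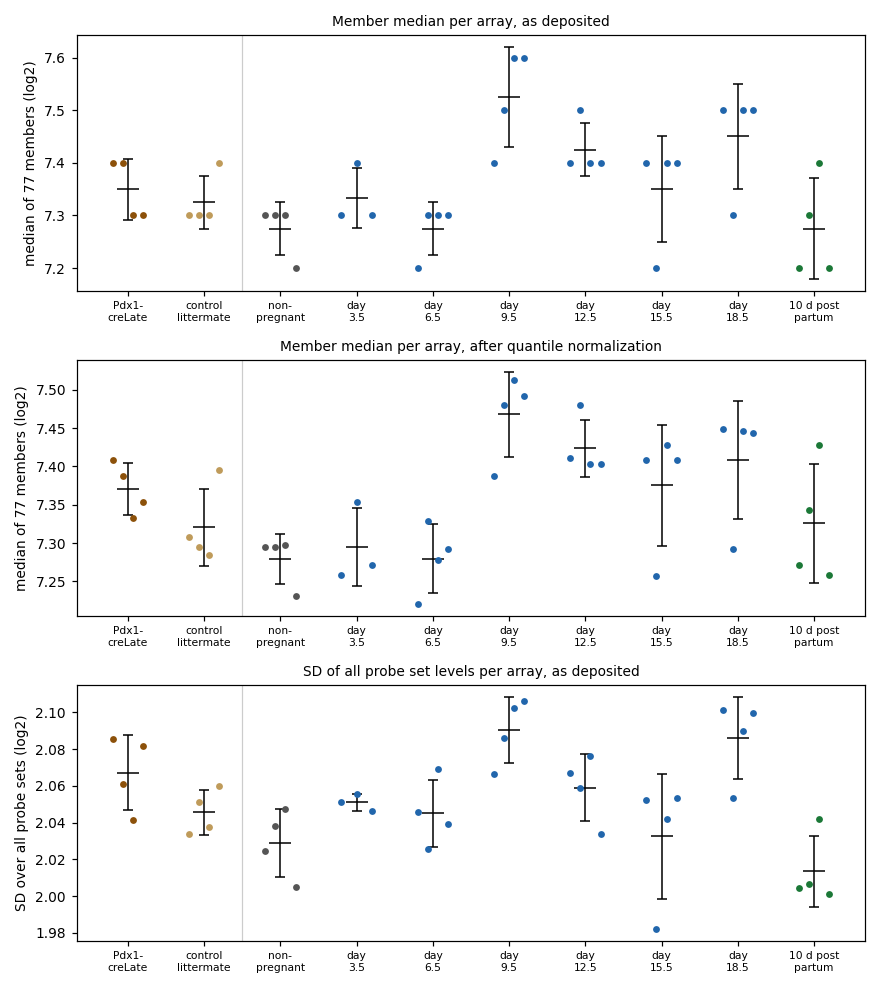
Median log2 level of the 77 members on each of the 39 arrays as deposited (top) and after quantile normalization (middle), and the SD of all 35556 probe set levels on each array (bottom), by group. Points are arrays, bars give the group mean and SD, and day 9.5 has the highest mean of the member median in both upper panels, 7.53 and 7.47, and also the highest mean array SD, 2.09.

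Of the 77 members, 50 had their highest day mean at day 9.5 and 12 at day 18.5, while 31 had their lowest at day 6.5 and 20 at day 3.5. The range of a member's 6 day means had a median of 0.28 and ran from 0.05 to 0.58. Over the 10 group means, the Pearson correlation of a member with the member median was positive for 72 of 77, with a median of 0.49. These correlations describe 10 means that share arrays and normalization with the median itself. A limma F-test for any difference among the 6 pregnancy days called 35 members at adjusted p under 0.05 as deposited. In that test 38.6% of all genes were called, so the members' share was near the background. It called 28 members after quantile normalization, where 28.8% of all genes were called, and 12 with the array SD as a covariate, where 24.6% were. Without day 9.5 replicate 3 or 4 the count of 35 fell to 22.

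Day 9.5 was then compared with non-pregnant mice, to ask which members differed between the states. Of 77 members, 30 were called higher and none lower at adjusted p under 0.05 (limma). Of all genes, 11.6% were called higher and 7.74% lower. The members' median difference was 0.23, with 70 members above 0 and 6 below, against a median of -0.03 over all genes. The array medians over all probe sets, 5.8 to 6.0, lay below the member medians, and the values over all genes were not matched for level. In 15 of the 30 the groups did not overlap, which 7.88% of all genes showed together with a call upward. After quantile normalization 17 members were called higher, all of them among the 30, where 7.58% of all genes were called higher and 4.09% lower. The fit with the array SD as a covariate called 3 higher, Mrpl17, Mrpl18 and Mrps21, where 2.34% of all genes were called higher and 0.808% lower. Mrps21 was named after its values were seen. The count of 30 fell to 14 without non-pregnant replicate 4, to 16 without day 9.5 replicate 4 and to 17 without day 9.5 replicate 3.

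**Figure D2:**
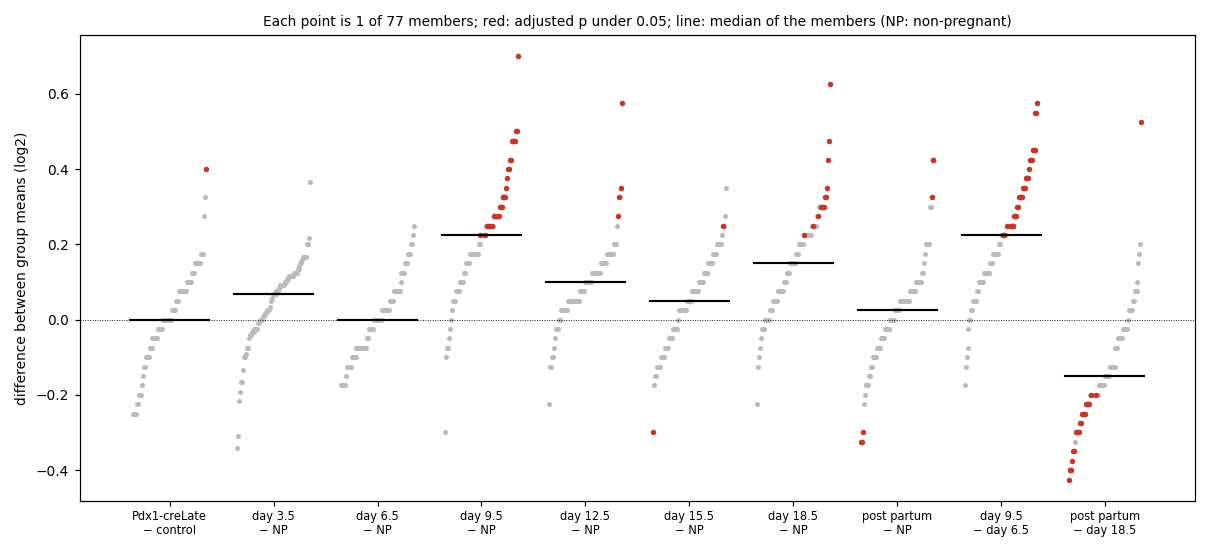
Difference between group means on the log2 scale for each of the 77 members in 10 comparisons, sorted within each comparison. Red points had an adjusted p under 0.05 (limma, over all 19938 genes), grey points did not, and black lines mark the median of the members, which is 0.23 at day 9.5 against non-pregnant, 0.23 for day 9.5 against day 6.5 and -0.15 for post partum against day 18.5.

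The calls at day 9.5 were then counted by subunit and origin. Among large subunit proteins with a bacterial counterpart, 10 of 29 were called higher, with a median difference of 0.23. Among large subunit proteins specific to mitochondria, a class that includes Mrps18a and Mrps30 despite their names, 13 of 20 were called higher, with a median of 0.26. Among small subunit proteins, 2 of 15 with a bacterial counterpart and 3 of 10 specific to mitochondria were called higher, with medians of 0.13 and 0.18. The last 2 calls, Mrps28 and Mrps36, were not in the class lists used. After quantile normalization the same 4 classes had 6, 7, 1 and 1 calls. In the fit with the array SD they had 2, 0, 1 and 0. Of all genes, 11.6%, 7.58% and 2.34% were called higher under these 3 settings, in the order given. The 2 of 15 as deposited and the small subunit counts after quantile normalization lay near these shares. The difference between the classes was not tested.

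Promoters of the members were read from RefSeq sequences on GRCm38.p6, each from 250 bases before to 50 bases after the start of the gene, and 68 members had an entry, with 74 promoters between them. Nuclear genes of mitochondrial proteins are known targets of NRF1, of the ETS factor GABP and of YY1, so their short motifs were searched on both strands. The NRF1 core GCGCANGCG was found in 21.6% of the member promoters and in 6.25% of all 32851 promoters. The ETS motif CCGGAAG was found in 33.8% against 8.86%, and the YY1 motif AAGATGGC in 16.2% against 2.75%. The E box CACGTG was found in 9.46% against 7.15% and CCAAT in 39.2% against 37.4%. The shares count promoters, and members with several promoters enter more than once. The overlapping windows of Mrpl2 each held an E box, and by member 5 of the 68 had one. These motifs were matched letter by letter and do not show binding. Member promoters were also richer in CpG, with a median of 21 CpG per window against 7 over all promoters, and the share of each motif was not adjusted for that.

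Sequences before the start are shown for 3 members called higher at day 9.5 under all 3 settings, Mrpl17 and Mrpl18 against non-pregnant mice and Mrps27 against day 6.5. They are also shown for the member with the largest difference at day 9.5, Mrpl42, and for the member called higher across birth, Mrps10. The members shown were chosen after the values were seen. Mrps21 against non-pregnant mice and Mrpl15 and Mrpl23 against day 6.5 were also called higher under all 3 settings and are not shown. The promoter window of Mrps21 held 1 NRF1 and 1 ETS match and that of Mrpl23 held no match to the 3 motifs, while Mrpl15 had no promoter entry. Each sequence is given 5′ to 3′ on the strand of the gene, with matches to the NRF1, ETS or YY1 motif in capitals.
Mrpl17, chr7:105811088-105811337, minus strand: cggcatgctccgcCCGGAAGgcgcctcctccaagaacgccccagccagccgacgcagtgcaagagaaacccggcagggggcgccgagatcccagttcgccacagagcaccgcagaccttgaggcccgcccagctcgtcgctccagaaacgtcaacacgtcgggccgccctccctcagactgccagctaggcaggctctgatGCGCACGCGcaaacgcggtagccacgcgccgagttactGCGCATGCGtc
Mrpl18, chr17:12916092-12916341, minus strand: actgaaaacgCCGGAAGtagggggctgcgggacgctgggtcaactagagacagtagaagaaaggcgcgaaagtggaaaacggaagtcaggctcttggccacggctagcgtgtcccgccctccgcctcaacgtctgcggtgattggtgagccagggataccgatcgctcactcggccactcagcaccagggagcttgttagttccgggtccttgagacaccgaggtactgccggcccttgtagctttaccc
Mrps27, chr13:99344679-99344785, plus strand: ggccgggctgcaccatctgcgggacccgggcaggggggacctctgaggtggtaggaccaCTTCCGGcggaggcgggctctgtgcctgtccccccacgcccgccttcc
Mrpl42, chr10:95501950-95502199, minus strand: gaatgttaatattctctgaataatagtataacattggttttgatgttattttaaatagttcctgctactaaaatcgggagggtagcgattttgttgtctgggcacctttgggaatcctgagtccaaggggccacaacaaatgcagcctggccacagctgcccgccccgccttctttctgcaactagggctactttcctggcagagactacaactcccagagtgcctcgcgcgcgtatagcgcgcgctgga
Mrps10, chr17:47368947-47369196, plus strand: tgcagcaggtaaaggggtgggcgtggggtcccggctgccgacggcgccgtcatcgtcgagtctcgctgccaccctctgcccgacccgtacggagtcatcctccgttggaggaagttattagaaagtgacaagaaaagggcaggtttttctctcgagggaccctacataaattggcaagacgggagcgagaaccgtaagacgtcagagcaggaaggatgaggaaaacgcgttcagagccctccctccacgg
The Mrpl17 sequence held 2 matches to the NRF1 core and 1 to the ETS motif, and those of Mrpl18 and Mrps27 held 1 ETS match each. The 250 bases shown for Mrpl42 and Mrps10 held no match to the 3 motifs, and Mrpl42 and Mrps27 each had a YY1 match after the start. The 107 bases shown for Mrps27 are all that lie between its start and that of Ptcd2 on the other strand.

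Such paired starts were frequent in the family. A start of another gene on the opposite strand lay within 1000 bases upstream of 37.8% of the member promoters and of 11.4% of all promoters, and 26 members had one. One such pair is made of members alone, since the starts of Mrpl46 and Mrps11 lie 42 bases apart. The 41 bases between them are shown on the strand of Mrps11.
Mrpl46 to Mrps11, chr7:78783090-78783130, plus strand: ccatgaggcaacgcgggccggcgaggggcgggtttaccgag
The partners of the other members had varied roles, and those named here were picked after the list was seen. The start of Mrps12 lay 147 bases from that of Sars2, a mitochondrial aminoacyl-tRNA synthetase, and the start of Mrpl43 lay 116 bases from that of Twnk, the helicase of mitochondrial DNA replication. Mrpl18 was paired with Tcp1, a subunit of the cytosolic chaperonin, at 238 bases, Mrpl2 with the kinesin light chain gene Klc4 at 141 bases, and Mrpl40 with the histone chaperone gene Hira at 113 bases. Of the 16 members with an NRF1 core, 10 were called higher as deposited at day 9.5 against non-pregnant, with a median difference of 0.26. Of the 52 without, 16 were, with a median of 0.18. For the ETS motif these counts were 12 of 25 and 14 of 43, for YY1 6 of 12 and 20 of 56, and for CCAAT 11 of 26 and 15 of 42. For the E box they were 1 of 5 and 25 of 63, and for an NRF1 core or an ETS motif 17 of 35 and 9 of 33. The split was looked at for 6 motif groups after the calls were known, as deposited only, and no difference between them was tested. Of all genes, 11.6% were called higher in that comparison, and the share among all genes with each motif is not given here. The calls of all members at day 9.5 fell from 30 to 17 after quantile normalization and to 3 with the array SD as a covariate.

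The largest difference at day 9.5 was that of Mrpl42 (probe set 10372078), a large subunit protein specific to mitochondria. Its level on the non-pregnant arrays was 5.5, 5.7, 5.6 and 5.2, and on those of day 9.5 it was 6.0, 6.0, 6.4 and 6.4. All arrays of day 9.5 were higher than all 4 non-pregnant ones. The difference was 0.70 ± 0.14 (SE), a 1.62-fold change, with an adjusted p of 0.00066. It was 0.76 after quantile normalization (adjusted p = 0.000965) and 0.20 with the array SD as a covariate (adjusted p = 0.53). Mrpl42 was also called higher on days 12.5 and 18.5, at 5.9, 5.9, 6.3 and 6.2 on day 12.5 and 6.3, 5.9, 6.1 and 6.2 on day 18.5. On day 15.5 it was 6.0 on 3 arrays and 5.4 on the other.

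Mrpl17 (probe set 10566564), a large subunit protein with a bacterial counterpart, was higher at day 9.5 as well. It read 7.2, 7.2, 7.1 and 7.3 on the non-pregnant arrays and 7.7, 7.6, 7.8 and 7.7 on those of day 9.5. The groups did not overlap, and the difference was 0.50 ± 0.08 (SE), a 1.41-fold change, with an adjusted p of 3.9e-05. It was the only member called higher against non-pregnant mice as deposited on each of days 9.5, 12.5, 15.5 and 18.5. The 4 arrays read 7.4, 7.6, 7.5 and 7.6 on day 12.5, 7.6, 7.2, 7.4 and 7.6 on day 15.5 and 7.7, 7.5, 7.7 and 7.8 on day 18.5. On day 3.5 all 3 arrays stood at 7.4 and on day 6.5 the values were 7.3, 7.3, 7.3 and 7.4, at or above the highest non-pregnant array and not called. Post partum it read 7.4, 7.3, 7.5 and 7.3, and this level was not called against the non-pregnant one (difference 0.18 ± 0.08, SE, adjusted p = 0.15).

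Mrpl18 (probe set 10447880), the large subunit protein related to the bacterial protein that binds 5S rRNA, read 7.9, 8.0, 7.7 and 7.8 in non-pregnant mice and 8.2, 8.4, 8.5 and 8.3 at day 9.5. Every array of day 9.5 was the higher, and the difference was 0.50 ± 0.08 (SE), with an adjusted p of 4.5e-05. On day 12.5 it stood at 8.1, 8.1, 8.1 and 8.2, on day 15.5 at 8.1 on all 4 arrays, on day 18.5 at 8.2, 8.1, 8.3 and 8.2, and post partum at 8.0, 8.2, 8.2 and 8.3. The post partum level remained above the non-pregnant one by 0.33 ± 0.08 (SE, adjusted p = 0.0074), with 1 value shared between the groups. With the array SD as a covariate that difference was 0.32 (adjusted p = 0.0080).

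The mean of days 9.5, 12.5 and 15.5, called mid-pregnancy here, was higher than non-pregnant for 9 members and lower for none, where 6.72% of all genes were called higher and 2.52% lower. The 9 were Mrpl17, Mrpl18, Mrpl30, Mrpl42, Mrpl54, Mrpl58, Mrps12, Mrps18a and Mrps21, of which Mrpl30, Mrpl54, Mrpl58 and Mrps21 are given only to complete the count. Mrpl18 was the one member of the 9 whose 12 mid-pregnancy arrays all lay above the 4 non-pregnant arrays, at 8.1 to 8.5 against 7.7 to 8.0, as 2.35% of all genes did with a call upward. Its difference was 0.34 ± 0.07 (SE, adjusted p = 0.000482). The differences were 0.54 ± 0.11 (SE, adjusted p = 0.0013) for Mrpl42 and 0.36 ± 0.07 (SE, adjusted p = 0.000226) for Mrpl17. After quantile normalization 7 members were called higher and none lower, where 6.07% and 4.48% of all genes were. With the array SD as a covariate 4 of the 9 were called higher, Mrpl17, Mrpl18, Mrpl42 and Mrpl58, and Mrpl1 was called lower, where 4.32% of all genes were called higher and 4.08% lower.

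The step from day 6.5 to day 9.5 uses no non-pregnant array, but its arrays of day 9.5 are those compared with non-pregnant mice above. The counts of the 2 comparisons are thus not independent. No other step between pregnancy days was tested. This step runs from the day where 31 members had their lowest day mean to the day where 50 had their highest, with each tie counted for 1 day only. In it 32 members were called higher and none lower, where 10.5% of all genes were called higher and 6.93% lower. The median difference of the members was 0.23. For 15 of the 32 the groups did not overlap, as for 6.3% of all genes with a call upward. After quantile normalization 22 members were called higher, 20 of them among the 32, where 7.78% of all genes were called higher and 5.08% lower. The fit with the array SD as a covariate called 4, Mrpl15, Mrpl18, Mrpl23 and Mrps27, where 3.03% of all genes were called higher and 2.17% lower. The count of 32 fell to 19 without day 9.5 replicate 3 or without day 9.5 replicate 4. Acinar markers moved the other way in this step, with 14 of 19 lower, 1 higher and a median difference of -1.90. The mean of the acinar markers was 9.99 to 10.3 on the arrays of day 6.5 and 6.52 to 9.89 on those of day 9.5. With that mean as a covariate 29 members were called higher, and the share of all genes called in that fit is not given here. The part of exocrine RNA in the step was not tested.

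Mrps27 (probe set 10406865), a small subunit protein of the pentatricopeptide repeat family, had the largest difference of the step. It read 5.9, 5.8, 5.7 and 5.8 on day 6.5 and 6.3, 6.2, 6.6 and 6.4 on day 9.5, with no overlap. The difference was 0.58 ± 0.10 (SE, adjusted p = 0.000352), and with the array SD as a covariate it was 0.41 (adjusted p = 0.029). Mrpl23, a large subunit protein at the rim of the exit tunnel for new proteins, read 8.3, 8.4, 8.7 and 8.3 on day 6.5 and 8.9, 9.1, 9.0 and 8.9 on day 9.5. Its difference was 0.55 ± 0.10 (SE, adjusted p = 0.000428), and all arrays of day 9.5 were higher. Mrpl22, which lines that tunnel, and Mrpl15 rose by 0.45 and 0.43, and Mrps28, Mrpl45 and Mrpl17 by 0.40, 0.38 and 0.38, each without overlap. Mrpl45 is the protein that holds the mitochondrial ribosome to the inner membrane. The calls of Mrpl22, Mrps28, Mrpl45 and Mrpl17 in this step were lost with the array SD as a covariate, with adjusted p of 0.18, 0.085, 0.17 and 0.067. That of Mrpl22 was also lost without day 6.5 replicate 4 (adjusted p = 0.057).

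No member was called at day 3.5 or at day 6.5 against non-pregnant mice. At an unadjusted p under 0.05 there were 5 members at day 3.5 and 6 at day 6.5, and over all genes limma called 0.0201% higher and 0.0251% lower at day 3.5 and 0.502% higher and 0.12% lower at day 6.5. At day 12.5, 4 members were called higher and none lower, where 4.08% of all genes were called higher and 1.19% lower. They were Mrpl17, Mrpl18, Mrpl42 and Mrpl54, each without overlap, as for 3.45% of all genes with a call upward. After quantile normalization Mrpl17, Mrpl42 and Mrpl54 were called higher, with 3.89% of all genes higher and 2.1% lower. The fit with the array SD as a covariate called no member, 9 had an unadjusted p under 0.05, and limma called 2.97% of all genes higher and 2.31% lower. That count fell to 1 without day 12.5 replicate 3 and to 2 without day 12.5 replicate 1 or non-pregnant replicates 1 or 4. At day 15.5, Mrpl17 was called higher (difference 0.25 ± 0.08, SE, adjusted p = 0.048) and Mrps25 lower (difference -0.30 ± 0.08, SE, adjusted p = 0.016), where 3.7% of all genes were called higher and 4.53% lower. After quantile normalization 4 members were called higher and 1 lower, where 4.1% and 5.99% of all genes were, and with the array SD as a covariate 3 and 1 were, where 4.95% and 6.73% of all genes were. Without day 15.5 replicate 3 no member was called, and leaving out other single arrays gave up to 3.

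At day 18.5, the last day of pregnancy sampled, 13 members were called higher than in non-pregnant mice and none lower, where 8.59% of all genes were called higher and 2.5% lower. The median difference of the members was 0.15 and that of all genes 0.00. After quantile normalization 7 were called higher, where 6.18% of all genes were called higher and 2.93% lower. With the array SD as a covariate Mrpl17, Mrpl18 and Mrpl58 were called higher and Mrpl1 lower, where 2.55% of all genes were called higher and 1.78% lower. The count of 13 fell to 6 without day 18.5 replicate 3 or non-pregnant replicate 4, to 7 without day 18.5 replicate 1 and to 8 without day 18.5 replicate 4. Mrpl42 differed by 0.63 ± 0.14 (SE, adjusted p = 0.0026) and Mrpl17 by 0.48 ± 0.08 (SE, adjusted p = 9.3e-05), and in both the groups did not overlap.

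**Figure D3:**
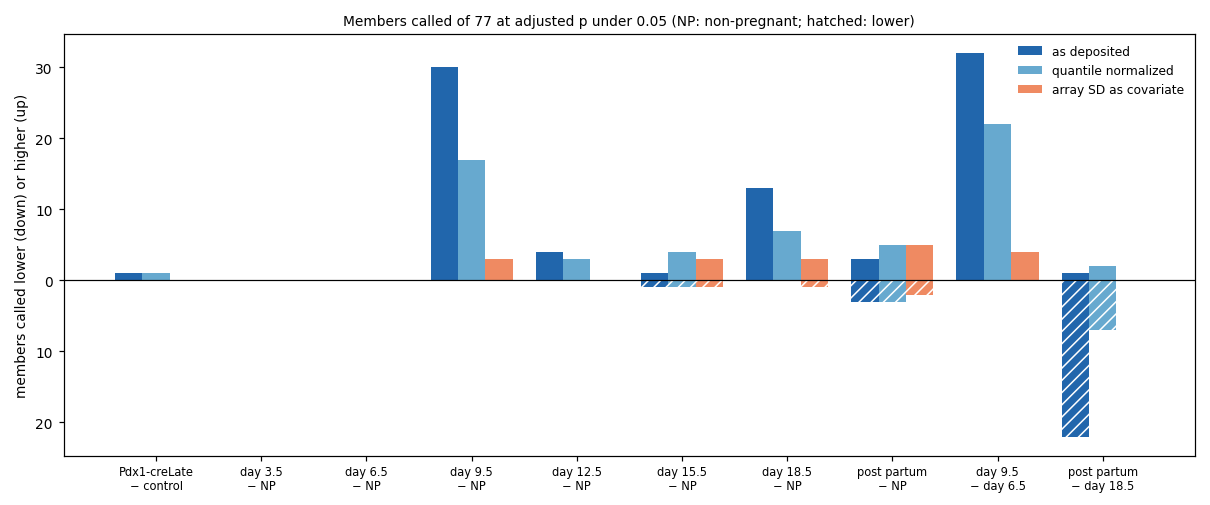
Number of the 77 members called higher (up) or lower (down, hatched) at adjusted p under 0.05 in 10 comparisons, as deposited, after quantile normalization, and with the array SD as a covariate. At day 9.5 against non-pregnant the counts are 30, 17 and 3, for day 9.5 against day 6.5 they are 32, 22 and 4, and post partum against day 18.5 the lower counts are 22, 7 and 0.

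Across birth, from day 18.5 to 10 days post partum, 22 members were called lower and 1 higher, where 18.4% of all genes were called lower and 11.8% higher. The members' median difference was -0.15 and that of all genes -0.03. After quantile normalization 7 were called lower and 2 higher, where 8.27% of all genes were called lower and 4.38% higher, and with the array SD as a covariate limma called no member. In that last fit 8 members had an unadjusted p under 0.05, and 0.0401% of all genes were called higher and 0.0802% lower. The count of 23 calls fell to 13 without day 18.5 replicate 3 or 4 and to 14 without day 18.5 replicate 1 or post partum replicate 4. Markers of other cell types also fell in this comparison, with 9 of 10 endothelial and 6 of 10 stellate markers called lower. The mean of the endothelial markers was 7.91 to 8.01 at day 18.5 and 7.54 to 7.68 post partum, and their part in the result was not tested.

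Of the 22 members that fell, 7 did so without overlap, as for 10.3% of all genes with a call downward. Mrpl52 read 7.5, 7.3, 7.5 and 7.5 at day 18.5 and 7.2, 7.1, 7.2 and 6.7 post partum, a difference of -0.40 ± 0.10 (SE, adjusted p = 0.0044). Mrpl45 read 6.6, 6.5, 6.8 and 6.6 at day 18.5 and 6.2, 6.4, 6.3 and 6.1 post partum, a difference of -0.38 ± 0.09 (SE, adjusted p = 0.0053). Both were called after quantile normalization too. Mrpl4, Mrpl24, Mrpl41, Mrpl14 and Mrpl30, all of the large subunit, fell by 0.35, 0.30, 0.28, 0.25 and 0.20 without overlap, and of these Mrpl14 was called after quantile normalization. The calls of Mrpl41, Mrpl14 and Mrpl30 were also lost without one of 3, 3 and 5 arrays, with adjusted p up to 0.094, 0.11 and 0.14. Mrpl41 has 2 probe sets, and over their mean its difference was -0.10 (adjusted p = 0.28).

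Mrps10 (probe set 10445670), a small subunit protein with a bacterial counterpart, was the member called higher across birth. It read 6.4, 6.5, 6.5 and 6.4 at day 18.5 and 7.0, 7.3, 6.6 and 7.0 post partum, with no overlap. The difference was 0.53 ± 0.13 (SE, adjusted p = 0.0059), and with the array SD as a covariate it was 0.13 (adjusted p = 0.80). On the non-pregnant arrays it read 6.4, 6.8, 6.7 and 6.8, which overlapped both groups. At day 9.5 it read 6.6, 6.4, 6.4 and 6.1, a difference of -0.30 ± 0.13 (SE) from non-pregnant mice that was not called (adjusted p = 0.11) and was 0.04 with the array SD as a covariate.

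Against non-pregnant mice, 10 days post partum had 3 members called higher, Mrps12, Mrpl42 and Mrpl18, and 3 lower, Mrpl1, Mrpl45 and Mrpl52, where 4.46% of all genes were called higher and 7.78% lower. After quantile normalization 5 were called higher and 3 lower, where 5.18% and 7.62% of all genes were. The fit with the array SD called 5 higher and 2 lower, where 5.07% and 7.22% of all genes were called. Of the marker lists, 4 of 10 endothelial and 5 of 10 stellate markers were called lower in this comparison. The mean of the endothelial markers was 7.54 to 7.68 post partum and 7.77 to 7.93 in non-pregnant mice, that of the stellate markers 6.68 to 6.79 and 6.94 to 7.29, and their part in the result was not tested. Mrps12, a protein of the decoding centre, read 7.1, 6.9, 6.8 and 7.1 in non-pregnant mice and 7.5, 7.3, 7.5 and 7.3 post partum, with no overlap. Its difference was 0.43 ± 0.11 (SE, adjusted p = 0.0077), and it was called in all 39 alternative fits tried, with adjusted p up to 0.041. Mrpl42 differed by 0.43 ± 0.14 (SE, adjusted p = 0.042), a call lost after quantile normalization (adjusted p = 0.088), with arrays centred on their medians (adjusted p = 0.082) and without any one of post partum replicates 2, 3 or 4 or non-pregnant replicates 1, 3 or 4 (adjusted p up to 0.13). The count of 6 fell to 3 without post partum replicate 4 or non-pregnant replicates 1 or 3.

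**Figure D4:**
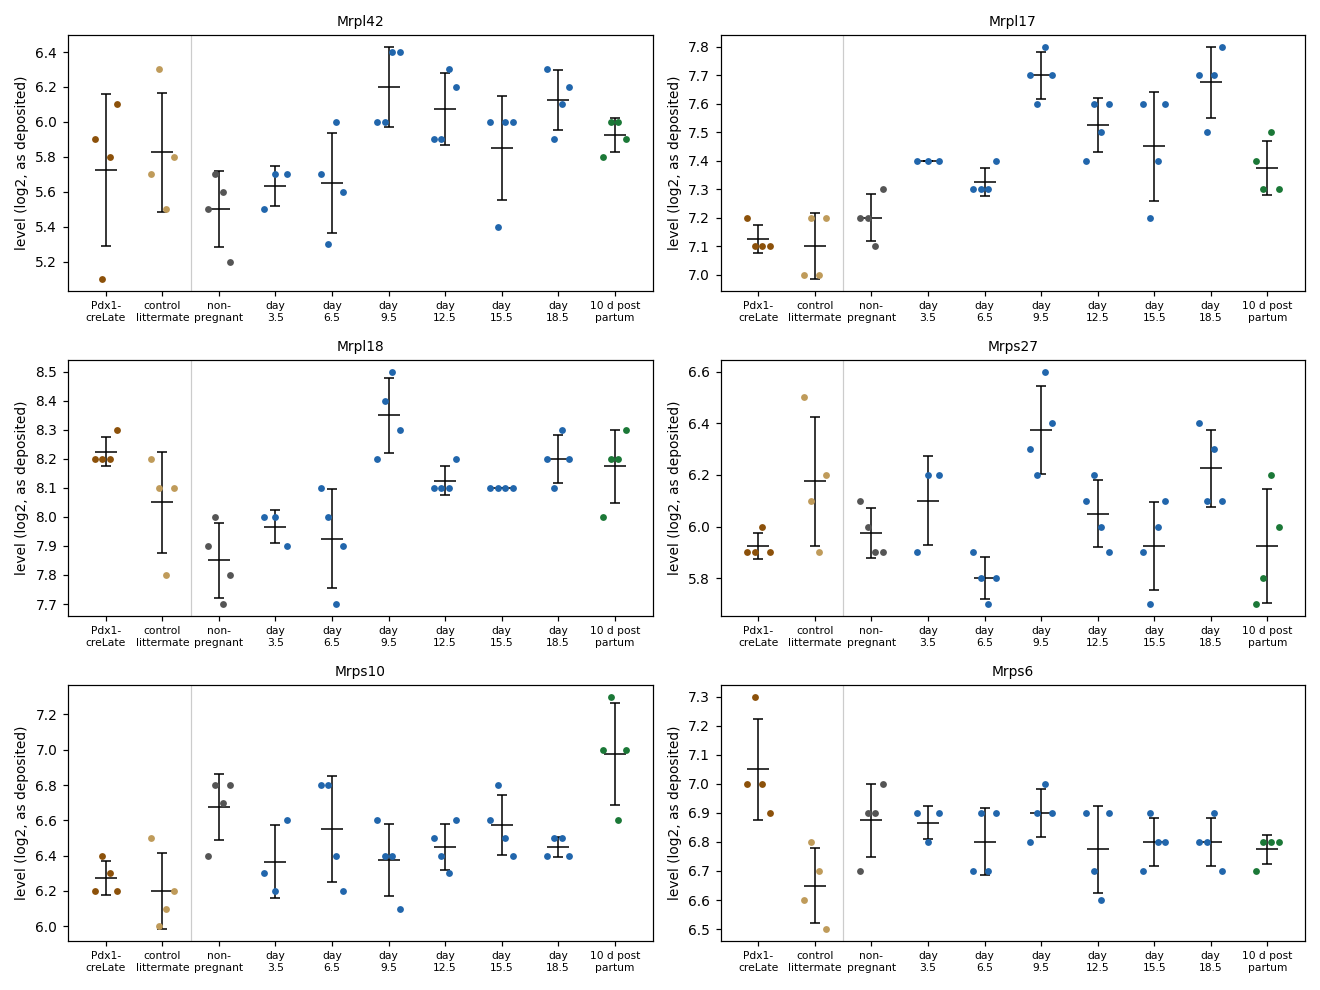
Log2 level as deposited of 6 members on each array by group, with points for arrays and bars for the group mean and SD. Mrpl42, Mrpl17, Mrpl18 and Mrps27 are higher at day 9.5 than in non-pregnant mice on every array, Mrps10 is highest post partum at a mean of 6.98, and Mrps6 is higher in Pdx1-creLate mice (mean 7.05) than in control littermates (mean 6.65).

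In Pdx1-creLate mice 1 member was called, Mrps6 (probe set 10436941), a small subunit protein with a bacterial counterpart, where 2.86% of all genes were called higher and 3.72% lower than in control littermates. After quantile normalization Mrps6 alone was called as well, where 2.8% of all genes were called higher and 3.36% lower. The fit with the array SD called no member, 6 members had an unadjusted p under 0.05, and limma called 1.78% of all genes higher and 2.07% lower. It read 7.0, 7.3, 7.0 and 6.9 in Pdx1-creLate mice and 6.6, 6.8, 6.7 and 6.5 in control littermates, with no overlap. The difference was 0.40 ± 0.11 (SE, adjusted p = 0.037), a 1.32-fold change. The call was lost in 9 of 16 alternative fits, with adjusted p up to 0.11: without Pdx1-creLate replicate 1, 2 or 3, without control littermate replicate 1, 3 or 4, with arrays centred on their medians, and with the array SD or the acinar mean as a covariate. Without control littermate replicate 2, 2 members were called. The median difference of the 77 members was 0.00, with 37 above 0 and 31 below, against -0.03 over all genes. Endocrine markers were lower in these islets, with 4 of 10 beta-cell and 4 of 8 other endocrine markers called lower, and their part in the result was not tested.

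The difference between the transgene effect and the mid-pregnancy effect was tested in 1 model over all 39 arrays. It was called for 3 members, 1 higher and 2 lower, where 1.63% of all genes were called higher and 3.86% lower. After quantile normalization Mrps6 and Mrpl2 were called, with 1.81% of all genes higher and 3.25% lower, and with the array SD as a covariate all 3 were, with 1.9% and 4.06%. Mrps6 differed by 0.45 ± 0.11 (SE, adjusted p = 0.0072), from a transgene effect of 0.40 and a mid-pregnancy effect of -0.05. Mrpl2, which lies near the peptidyl transferase centre, differed by -0.36 ± 0.08 (SE, adjusted p = 0.0050). It read 8.2, 8.1, 8.2 and 8.1 in Pdx1-creLate mice and 8.4 on all 4 control littermate arrays, a difference of -0.25 that was not called (adjusted p = 0.095), and its mid-pregnancy difference was 0.11. The 4 littermate arrays lay above every other array of the series, the non-pregnant C57bl6/J arrays standing at 8.0 and 8.1, and strain or backcross was not tested. Mrpl17 differed by -0.33 ± 0.10 (SE, adjusted p = 0.044), from a transgene effect of 0.03 and a mid-pregnancy effect of 0.36. By size the lowest differences were those of Mrpl42 (-0.64 ± 0.22, SE, adjusted p = 0.080) and Mrps27 (-0.39 ± 0.14, SE, adjusted p = 0.11), and Mrps10 followed Mrps6 among the highest (0.28 ± 0.17, SE, adjusted p = 0.41). None of these was called. The calls of Mrps6 and Mrpl2 were kept in all 47 alternative fits and that of Mrpl17 in 30. Without control littermate replicate 3, 5 members were called.

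The correlations with the member median ran from -0.56 to 0.88 without a clear break, and the lowest are named here. Over the 10 group means Mrps16 had a correlation of -0.56 with the member median, Mrps10 of -0.49, Mrpl47 of -0.43, Mrpl12 of -0.33 and Mrps15 of -0.03. Mrps16, a small subunit protein, had its lowest day mean at day 9.5 and its highest at day 15.5, and it was 8.83 ± 0.13 post partum against 8.63 ± 0.05 in non-pregnant mice (SD, n = 4 each, adjusted p = 0.11). Mrpl12, the stalk protein of the large subunit, differed among the pregnancy days (F-test adjusted p = 0.012, and 0.015 with the array SD as a covariate). It read 6.3, 6.7 and 6.3 on day 3.5 and 7.0, 6.6, 7.0 and 7.0 on day 15.5. Day 3.5 and day 15.5 thus overlapped in 1 array each.

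Mrps18a, Mrps18b and Mrps18c are paralogs, of which Mrps18a sits in the large subunit and the others in the small one. Mrps18a was called higher at day 9.5 (difference 0.33 ± 0.08, SE, adjusted p = 0.0032), with 8.3, 8.3, 8.4 and 8.3 against 8.1, 8.1, 7.9 and 7.9 in non-pregnant mice. Mrps18b differed by 0.25 ± 0.10 (SE, adjusted p = 0.078) and Mrps18c by 0.18 ± 0.12 (SE, adjusted p = 0.30), neither of them called, and the difference between the paralogs was not tested. Mrps36, which is now known as a part of the oxoglutarate dehydrogenase complex rather than of the ribosome, differed by 0.30 ± 0.10 at day 9.5 (SE, adjusted p = 0.030). It read 4.6 to 5.3 over the 39 arrays, the groups overlapped, and with the array SD as a covariate its difference was 0.02 (adjusted p = 0.97).

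Calls in lists of other genes of mitochondrial gene expression were also counted at day 9.5 against non-pregnant, where 11.6% of all genes were called higher as deposited. The share called higher lay below that in some of these short lists and above it in others. Of 4 measured subunits with other names 2 were called higher, Gadd45gip1 by 0.33 ± 0.08 (SE) and Dap3 by 0.28 ± 0.09 (SE), with adjusted p of 0.0071 and 0.039. Of 24 assembly factors 2 were called higher, Tfb1m, which methylates the small subunit rRNA, by 0.45 and the GTPase Noa1 by 0.43. Of 15 translation factors 2 were called higher, one of them Slirp, which binds mitochondrial mRNA, by 0.45. Of 20 aminoacyl-tRNA synthetases and related enzymes 2 were called higher, Yars2 by 0.50 and Gatc by 0.33. Of 10 genes of mitochondrial DNA maintenance and transcription 2 were called higher, the packaging factor Tfam by 0.43 and the single-strand binding protein Ssbp1 by 0.40. None of these 5 lists had a gene called lower at day 9.5, and their median differences were 0.28, 0.11, 0.15, 0.09 and 0.06. The fit with the array SD as a covariate called no gene of these 5 lists.

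Among 9 regulators of nuclear genes for mitochondrial proteins, Myc, a transcription factor of growth, was called higher at day 9.5 by 1.55 ± 0.22 (SE, adjusted p = 5.44e-06). Nrf1 and Gabpa, whose motifs were searched above, differed by 0.10 ± 0.08 and 0.15 ± 0.09 (SE), with adjusted p of 0.39 and 0.23. Myc was also higher in Pdx1-creLate mice than in control littermates, by 1.23 ± 0.25 (SE, adjusted p = 0.0065). The coactivator Ppargc1a was lower there by 0.70 ± 0.13 (SE, adjusted p = 0.0036) and differed by -0.15 ± 0.10 (SE, adjusted p = 0.28) at day 9.5. The other regulators of the list, and results of those named here under the other settings, are not given.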

How the data were processed

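The deposited values are log2 signals per probe set that the authors made with RMA in Affymetrix Expression Console, per the submitters' processing notes. The software version, and how the arrays were batched in that step, are not given in the sources used here. Of 35556 probe sets, 21789 carried 1 gene symbol in GEO's platform annotation, 1621 several and 12146 none, and the probe set with the highest mean stood for each of 19938 genes. Probe sets of 1 symbol may target different copies, which was not resolved. Values carry 1 decimal, so some variances are near 0.

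Each array is 1 biological replicate per the labels. Differences between group means were tested with limma 3.58.1 (R 4.3.3, lmFit and eBayes) with Benjamini-Hochberg adjustment over all 19938 genes and a threshold of 0.05. The Pdx1-creLate comparison was fitted on its own 8 arrays, the pregnancy comparisons on the 31 C57bl6/J arrays, and the comparison of both effects on all 39. SE is that of the moderated fit. Means and SDs are of log2 values. Quantile normalization, array median centring, a filter on the 25% dimmest genes, trended and robust variance, averaging the probe sets of each gene, the array SD or the acinar marker mean as a covariate, a replicate block and leaving out each array were tried. The test was also run on simulated data, with noise set from the C57bl6/J groups and no differences in array SD built in. Of added differences of 0.3 it called 7% for Pdx1-creLate and 52.5% for mid-pregnancy. Of added differences of 0.5 it called 63.5% and 96%. Summaries and figures used Python 3.11.15 with pandas 2.3.3, numpy 2.4.6, scipy 1.17.1 and matplotlib 3.10.9. The number of arrays limits the precision.

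Members and gene lists were chosen with earlier results of these data known. Members were named by rule: the largest called differences without overlap of the groups, the widest ranges of day means, the lowest correlations with the member median, the largest differences between the transgene and pregnancy effects, and Mrps18a, Mrps18b, Mrps18c, Mrpl12 and Mrps36 in any case. Mrps21, Mrps25, Mrpl1, Mrpl54, Mrpl58 and members that complete a count lie outside it and were named after their values were seen. The paired starts, the CpG counts and the split of calls by motif were likewise added after the values were seen. Of the 77 members, 9 had no promoter entry: Mrpl4, Mrpl13, Mrpl15, Mrpl19, Mrpl38, Mrpl54, Mrps28, Mrps34 and Mrps35.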

Additional observations from a re-analysis of the deposited data

Results flagged for a closer look

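An array was singled out where its gap to the nearest of the other 3 was over 0.829 of the range of its group, which chance gives in about 1 of 20 groups. Of 102 sets of 4 arrays behind the levels described, 21 held such an array; the search first covered 306 sets of all named members, of which 54 did, and was then narrowed after the values were seen. Since values carry 1 decimal, 3 equal values and 1 that differs by 0.1 are enough.

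Replicate 2 of day 15.5 was far from the other 3 arrays in the member median after quantile normalization, at 7.258 against 7.408 to 7.428. It was also far in Mrpl42, at 5.4 against 6.0 on the other arrays, and in Mrpl12, at 6.6 against 7.0. Replicate 2 of day 18.5 had a member median after quantile normalization of 7.292 against 7.444 to 7.449, with Mrpl52 at 7.3 against 7.5 and Mrpl24 at 8.8 against 8.9. The member median of replicate 2 of day 12.5 was high, at 7.479 against 7.403 to 7.41, and that of non-pregnant replicate 4 was low, at 7.231 against 7.295 to 7.297.

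The other 13 values stood 0.1 or 0.2 from 3 equal ones. In Pdx1-creLate mice these were Mrpl17 in replicate 1 at 7.2, Mrpl18 in replicate 4 at 8.3 and Mrps27 in replicate 3 at 6.0. At day 6.5 they were Mrpl15 in replicate 2 at 6.0 and Mrpl17 in replicate 4 at 7.4. At day 9.5 they were Mrpl15 in replicate 1 at 6.2, Mrps28 in replicate 1 at 7.1 and Mrpl22 in replicate 4 at 5.9. Mrpl18 was at 8.2 in replicate 4 of day 12.5. In replicate 3 of day 18.5 Mrpl14 was at 6.8 and Mrpl30 at 7.8. In replicate 1 post partum Mrpl41 was at 7.3 and Mrps6 at 6.7.

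The transgene effect and the mid-pregnancy effect differed by test for 3 members: -0.36 for Mrpl2, -0.33 for Mrpl17 and 0.45 for Mrps6 (limma, adjusted p of 0.0050, 0.044 and 0.0072).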

How the results depend on the processing

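Several counts of called members moved with normalization and with the array SD, and the cause was not tested. With arrays centred on their medians, which moved the median of all genes across birth from -0.03 to -0.15, the counts were 0 for Pdx1-creLate, 48 for day 9.5, 2 for day 12.5, 1 for day 15.5, 27 for day 18.5 and 43 across birth, and the median level at day 9.5 stood 0.35 above non-pregnant. Of all 19938 genes, that setting called 1275, 4249, 696, 1106, 3214 and 7766 in these comparisons, in the same order. At day 9.5 3824 of them were higher, and across birth 6958 were lower. The array medians also carry 1 decimal, so centring moved whole arrays in coarse steps. They were 5.9, 5.9, 5.9 and 6.0 on the non-pregnant arrays and 5.9, 5.8, 5.8 and 5.8 at day 9.5. After quantile normalization the counts of members were 17 for day 9.5, 5 for day 15.5, 7 for day 18.5 and 9 across birth. With the array SD as a covariate they were 0 for Pdx1-creLate, 5 for mid-pregnancy, 3 for day 9.5, 0 for day 12.5, 4 for day 15.5, 4 for day 18.5, 4 for the step to day 9.5, 0 across birth and 12 for any difference among days, and Mrpl41 turned from -0.28 to 0.012 across birth. Over the mean of its probe sets the uncalled difference of effects of Mrpl51 turned from 0.12 to -0.029. With the acinar mean as a covariate day 15.5 had 1. Under trended and robust variance, the mean of probe sets and the filter on dim genes, all 13 counts stayed within 1.5 times.

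Leaving out 1 array in turn gave 0 to 2 calls for Pdx1-creLate, 6 to 11 for mid-pregnancy, 0 for day 3.5, 0 to 1 for day 6.5, 14 to 35 for day 9.5, 1 to 4 for day 12.5, 0 to 3 for day 15.5, 6 to 17 for day 18.5, 3 to 9 for post partum against non-pregnant, 19 to 36 for the step, 13 to 30 across birth, 2 to 5 for the difference of effects (5 without control littermate replicate 3) and 22 to 41 among days (22 without day 9.5 replicate 3 or 4).

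The replicate numbers did not pair the arrays: deviations of same-numbered arrays correlated at -0.34 to 0.31, and 13 of 39 arrays correlated best with their own number. With the replicate block the counts were 31 for day 9.5, 30 for the step, 11 for day 18.5, 24 across birth, 10 for mid-pregnancy and 1 for Pdx1-creLate. The shares of all genes called with the block, with the acinar mean or with 1 array left out are not given here.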
